A study of Mus musculus with 2 samples.

Results

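The type I interferon response was examined in mouse bone marrow-derived macrophages (BMDMs) through 39 genes, namely the receptor chains, interferon regulatory factors (IRFs), sensors of foreign RNA and DNA, and antiviral effectors. They were taken by name from the probe annotation of the array, which names 18194 genes by a probe set of their own, and all 39 had at least 1 such probe set. The list was drawn up by name and not by a threshold on these signals, but with earlier results of the same arrays known. BMDMs from female C57BL/6J mice aged 8 weeks, grown in M-CSF for more than 7 days, stood for 1 hr in medium or in the culture supernatant of apoptotic W3 cells, and the RNA of each condition was read on 1 Affymetrix array. The comparison asks which macrophage genes respond to soluble factors from dying cells. W3 cells are Fas-bearing mouse T cells kept as a line. They were killed with Fas ligand (30 min), and their supernatant was collected over a further 60 min. The methods state 10% FCS in DMEM for BMDM culture and 1% FCS in RPMI for the W3 supernatant. They do not give the control medium of the 1 hr incubation. Supernatant of living W3 cells was not put on an array. Apoptosis, conditioning of the medium by W3 cells, the base medium and serum content therefore cannot be told apart.

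Type I interferons bind a receptor made of Ifnar1 and Ifnar2. The kinases Jak1 and Tyk2 then phosphorylate STAT proteins, and a complex of these with Irf9 binds a short DNA element, the interferon-stimulated response element (ISRE), in the promoters of the response genes. Macrophages are known to keep a low tonic interferon signal, so that many response genes are expressed without infection. The products block viral entry, translation and replication, sense viral nucleic acids, or, like Usp18, dampen the receptor itself.

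Signals are linear intensities from the MAS5 software, 1 per probe set. A floor of 38.4, the 95th percentile of 80 olfactory and vomeronasal receptor probe sets on the array where it was higher, replaced any lower signal, and a gene above it on either array counts as measured, as 11977 genes did. Each gene was read by the brightest of its probe sets, judged by the mean of both arrays. With 1 array per condition no test can be run and no SD between replicates given, and precision is limited by this number of arrays. All ratios are supernatant over medium on the log2 scale unless a fold is given. To gauge technical disagreement, the log2 ratios of the 2 brightest probe sets of a gene differed with an SD of 0.25 per probe set over 5196 genes, which covers no biological error. The macrophage markers Csf1r (30999 with medium and 28572 with supernatant), Cd68 (14456 and 14760) and Adgre1 (16160 and 15781) were bright on both arrays, and the summed signal of all 10 measured macrophage markers was 129624 and 132922. Of these Mertk, a receptor for apoptotic cells, was higher, at 471 and 1050.0. Of 7 named markers of plasmacytoid dendritic cells, which secrete much type I interferon, 3 were under the floor on both arrays. The other 4 summed to 2633 and 3024, with none past 1.5-fold, and most of that sum was Tcf4 (2432 and 2795). Siglech (3.5 and 39.6) and Ly6d (43.3 and 8.5) passed the floor on 1 array only. Of 11 named T cell markers 7 were under the floor on both arrays, Cd3d, Cd3e, Cd3g, Cd4 and Thy1 among them, and the summed signal of the other 4 was 739.7 with medium and 659 with supernatant. Of these 4, Cd5 (65.9 and 42.8) was 1.54-fold lower, Cd8a (72.9 and 20.7, under the floor) at least 1.90-fold lower and Zap70 (208 and 313) 1.51-fold higher, while Cd28 read 393 and 283. The part of other cells in the results below was not tested. Fewer cells of a type and less RNA per cell cannot be told apart in such bulk RNA.

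A match to the ISRE was found in the promoters of 15 of the 32 members whose promoter sequence was given, and 7 with a match are shown. Of these, 5 belong to genes with lower signals in the supernatant (Ifit1, Ifit3, Gbp3, Rsad2, Tmem140). Oas1a and Bst2 hold the same element, and their signals were nearly equal (Oas1a) or 1.10-fold higher (Bst2). Each line is the 170 bases before an annotated RefSeq start in GRCm38.p6, 5′ to 3′ on the strand of the gene. Capitals mark matches to the ISRE core, a pair of GAAA runs with 2 free bases between them (TTTC runs when read on the other strand), and overlapping matches run together.
Ifit1: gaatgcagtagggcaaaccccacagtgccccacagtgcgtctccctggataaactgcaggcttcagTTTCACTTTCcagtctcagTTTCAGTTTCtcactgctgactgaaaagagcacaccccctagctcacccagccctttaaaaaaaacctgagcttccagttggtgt
Ifit3: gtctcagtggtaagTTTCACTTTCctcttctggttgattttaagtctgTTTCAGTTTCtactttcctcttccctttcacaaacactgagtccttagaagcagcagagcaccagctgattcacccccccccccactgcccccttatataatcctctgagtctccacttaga
Gbp3: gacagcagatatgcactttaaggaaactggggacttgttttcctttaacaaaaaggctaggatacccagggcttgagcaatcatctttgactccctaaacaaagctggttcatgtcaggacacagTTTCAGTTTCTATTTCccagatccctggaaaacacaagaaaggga
Rsad2: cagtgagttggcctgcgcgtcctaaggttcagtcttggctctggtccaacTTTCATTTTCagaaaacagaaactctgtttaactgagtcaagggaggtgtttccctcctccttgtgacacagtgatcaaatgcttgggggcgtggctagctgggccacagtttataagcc
Tmem140: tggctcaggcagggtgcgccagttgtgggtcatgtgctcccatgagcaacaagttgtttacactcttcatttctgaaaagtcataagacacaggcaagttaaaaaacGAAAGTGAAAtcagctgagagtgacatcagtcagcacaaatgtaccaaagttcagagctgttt
Oas1a: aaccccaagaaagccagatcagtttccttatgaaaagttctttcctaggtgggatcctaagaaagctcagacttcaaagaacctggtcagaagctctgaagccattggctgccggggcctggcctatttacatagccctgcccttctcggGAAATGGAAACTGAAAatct
Bst2: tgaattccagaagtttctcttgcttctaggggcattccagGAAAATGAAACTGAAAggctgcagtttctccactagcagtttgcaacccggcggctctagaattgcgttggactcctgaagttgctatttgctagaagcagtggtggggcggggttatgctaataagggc
The windows lie at chr19:34640719-34640888, plus strand (Ifit1), chr19:34583359-34583528, plus strand (Ifit3), chr3:142559874-142560043, plus strand (Gbp3), chr12:26456453-26456622, minus strand (Rsad2), chr6:34862976-34863145, plus strand (Tmem140), chr5:120907526-120907695, minus strand (Oas1a) and chr8:71537473-71537642, minus strand (Bst2). Ifit1, Ifit3, Gbp3, Oas1a and Bst2 each hold 2 matches in this stretch, and Rsad2 and Tmem140 hold 1 each.

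After 1 hr in the apoptotic cell supernatant a subset of the antiviral effector genes had lower signals than with medium, and most of the other members differed little. All 39 members were measured. Of these, 6 were at least 1.5-fold lower, namely Tmem140, Mx1, Gbp3, Ifit1, Ifit3 and Ifit2, against 4.47% of all measured genes. That share depends on how dim genes are treated, since 17.3% of 18194 genes without any floor, and 13.8% of 16361 genes with a floor lowered to the receptor median, were that much lower, beside the same 15.4% of the members. The same 6 were among 37 members with a mean signal of at least 10 times the floor. Over the 6931 genes as bright as that, 0.678% were at least 1.5-fold lower. At 2-fold, 2 members (Mx1 and Tmem140) were lower, against 0.843% of all measured genes and 0.115% of the bright ones. Their lower signals were known when the list was drawn up, and without these 2 genes 4 of 37 members (10.8%) were at least 1.5-fold lower. In the other direction 1 member, Stat2, was at least 1.5-fold higher and also reached 2-fold, against 3.71% and 0.96% of all measured genes. Stat2 was not bright by the measure above, and 0 of the 37 bright members were 1.5-fold or 2-fold higher, against 1.99% and 0.736% of the bright genes. The median log2 ratio of the members was -0.07, beside -0.02 over all measured genes. A further 7 members had log2 ratios of -0.30 or lower without reaching 1.5-fold, and 19 lay within 0.1 of 0. The ratio nearest 0 among these 7 was that of Irf1. Of all measured genes 13.6%, and of the bright ones 4.59%, had a ratio as low as that or lower, those past 1.5-fold included. For the 19 within 0.1 of 0 the matching share of all genes was not counted. Of all measured genes 30.9% had a ratio as low as that of Irf9 (-0.12) or lower, and 26.7% one as high as that of Zbp1 (0.10) or higher. A large part of all measured genes therefore lay between these ratios too, and the 19 are no trait of the members. In all, 26 members had the lower signal with the supernatant, by any amount, and 13 the higher, where 54.6% of all measured genes were lower. Among the bright members 26 of 37 were lower, where 52.5% of the bright genes were.

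**Figure D1:**
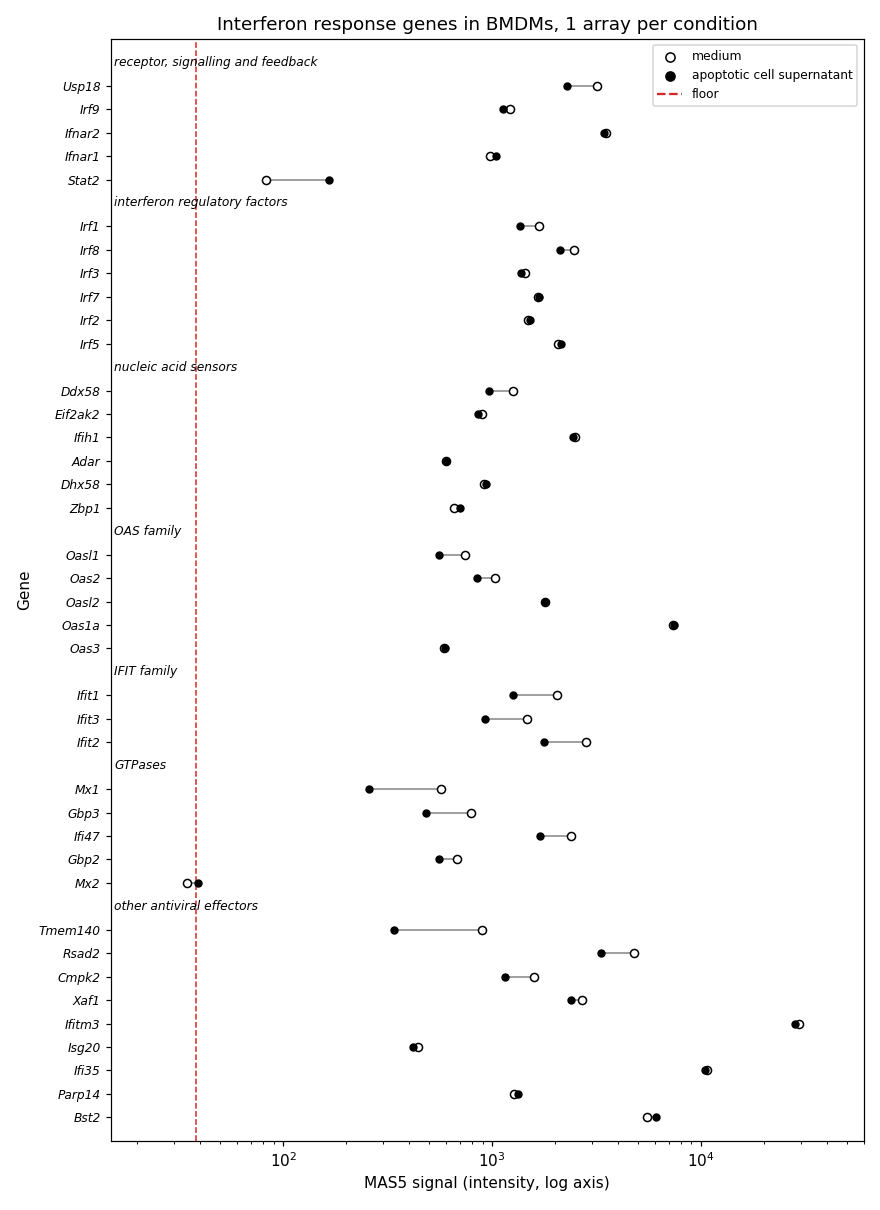
MAS5 signal (intensity, log axis) of the brightest probe set of each of the 39 members by role. Open circles are medium and filled circles apoptotic cell supernatant (1 array per condition), and a dashed line marks the floor at 38.4. The filled circles of all 3 Ifit genes, Mx1, Gbp3 and Tmem140 sit well left of the open ones, Stat2 runs the other way, and Oas1a and Ifitm3 nearly coincide.

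The 3 IFIT genes, whose products bind viral RNA and hold back its translation, were lower by close to the same amount. Ifit1 read 2043 with medium and 1254 with supernatant, 1.63-fold lower. Ifit2 read 2801 and 1776, 1.58-fold lower. Ifit3 read 1470 and 927, 1.59-fold lower. The log2 ratios of the 3 genes therefore ran from -0.70 to -0.66. Each was read by 1 probe set, and the genome holds a close copy of Ifit3, Ifit3b, whose RNA the Ifit3 probe set may also bind. Of the bright measured genes 25 had a ratio as low as that of Ifit1 or lower.

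The GTPases that act against viruses and intracellular microbes had lower signals, by any amount, in 4 of 5 cases, beside 54.6% of all measured genes. Mx1, a dynamin-like GTPase that blocks influenza virus and is not functional in C57BL/6 mice, read 568 with medium and 258 with supernatant. It was 2.20-fold lower, and 5 bright genes, itself included, had a ratio that low. Gbp3, a guanylate-binding protein, read 791 and 483, 1.64-fold lower. Ifi47, an immunity-related GTPase, read 2392 and 1689, 1.42-fold lower. Gbp2 read 679.6 and 558, 1.22-fold lower, and 570 and 523 on its other probe set. Mx2 read 34.8 and 39.3, at the floor, and no difference was detectable there.

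Among the other effectors Tmem140, a membrane protein of little-known function, had the largest difference of all members. Its signal was 891 with medium and 338 with supernatant, 2.64-fold lower, and only 1 other bright gene had a lower ratio. The second Tmem140 probe set read 42.6 and 42.8, close to the floor, where a change could hardly be seen. Rsad2, which encodes viperin, an enzyme that makes a chain-terminating nucleotide, was lower on all of its 3 probe sets, with 4759 and 3311, 2199.6 and 1426, and 707 and 452. These were 1.44-fold, 1.54-fold and 1.56-fold lower. Cmpk2, a nucleotide kinase encoded next to Rsad2, read 1591 and 1150.3, 1.38-fold lower, while its dimmer probe set read 149 and 144. Xaf1, a pro-apoptotic adaptor, read 2702 and 2374. The membrane proteins that act on entering or budding viruses differed little. Ifitm3 read 29524 and 28137, and Bst2 (tetherin) read 5499 and 6065. Signals were also close for Isg20, a 3′ exonuclease (439.9 and 419), Ifi35 (10644 and 10479.6) and, on its brightest probe set, Parp14, an ADP-ribosyltransferase (1268 and 1326). The other Parp14 probe set read 162 and 119, 1.36-fold lower, and the average of both gave a log2 ratio of -0.19.

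Of the 5 OAS family genes 3 had nearly equal signals and 2 were lower, short of 1.5-fold. These enzymes make 2′-5′ oligoadenylate, which activates RNase L, except for Oasl1, which lacks that activity. Oas1a read 7349 with medium and 7437 with supernatant, Oas3 read 586 and 594, and Oasl2 read 1784 and 1792, so these 3 were within 1.4% of equal. Oasl1 read 745 and 554, 1.34-fold lower, and Oas2 read 1032 and 849, 1.22-fold lower. Oas1a has close relatives in the genome, and its probe set may read some of them.

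For the receptor and its signalling partners the direction differed between genes and, in Ifnar1, between probe sets. Ifnar1 read 980 and 1047 on its brightest probe set and 302 and 278 on the other. Ifnar2 was lower on all 3 probe sets, with 3513 and 3415, 2477 and 1861, and 925 and 725, the dimmer ones 1.33-fold and 1.28-fold lower. Irf9, the DNA-binding partner of the STAT proteins, read 1220 and 1125. Usp18, a protease that removes ISG15 from proteins and blocks signalling at Ifnar2, read 3189 and 2279, 1.40-fold lower. Stat2 was the exception upward, at 82.9 and 166, 2.01-fold higher, on a dim probe set. Its second probe set read 105 and 111, 1.06-fold higher. The difference in Stat2 thus rests on 1 of 2 dim probe sets, and with the floor added to both signals as a pseudocount it was 0.76 on the log2 scale, short of 2-fold.

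On its brightest probe set none of the 6 interferon regulatory factors was 1.5-fold different. Irf3, which is activated by phosphorylation rather than by synthesis, read 1432 and 1368. Irf7, which amplifies interferon production, read 1657 and 1680. Irf2, a repressor, read 1490 and 1515, and Irf5, which acts below Toll-like receptors, read 2064 and 2131. Irf1, an early activator, read 1681 and 1363, 1.23-fold lower. Irf8, a lineage factor of macrophages, was lower on both of its probe sets, with 2454 and 2106, and 1340 and 1178. The dimmer probe sets of Irf3 had log2 ratios from -0.64 to -0.37, and that of Irf5 -0.64 (277 and 178). The lowest of each gene was 1.56-fold lower. For these 2 genes the level of the difference depends on the probe set, and for Irf5 its direction does too.

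Of the nucleic acid sensors, Ddx58 differed most on the brightest probe set, and several others were lower on a second one. Ddx58 (RIG-I), a sensor of viral RNA, was lower on all 3 probe sets, with 1255 and 966, 343 and 272, and 61.5 and 45.0. Ifih1 (MDA5), which senses long double-stranded RNA, read 2489 and 2446, and Dhx58 (LGP2), which modulates both, read 915 and 939. Adar, an RNA editing enzyme, read 602 and 600.0. Eif2ak2 (PKR), a kinase that stops translation, read 899 and 853, 917 and 741 (1.24-fold lower) on a probe set of like brightness, and 547 and 486 on the third. Zbp1, a sensor that triggers cell death, read 656 and 703 on its brightest probe set and 252 and 183, 1.38-fold lower, on the other. With the log2 signals of both averaged its log2 ratio was -0.18.

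The direction was also read on the remaining probe sets of the same genes. The members are read by 66 single-gene probe sets, all above the floor, of which 49 were lower and 17 higher with the supernatant. Of the 27 that were not the brightest of their gene, 23 (85.2%) were lower, with a median log2 ratio of -0.31. Over the corresponding 10168 probe sets of other genes 56.7% were lower, with a median of -0.04. Of 18 members with several probe sets, 10 were lower on every one, 1 (Stat2) was higher on every one and 7 were mixed. For other genes the share lower on every probe set was not counted, nor the share lower among all their probe sets. The 10 of 18 and the 49 of 66 therefore stand without a background. The probe sets of the members read the same 2 RNA samples and are no replicates.

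**Figure D2:**
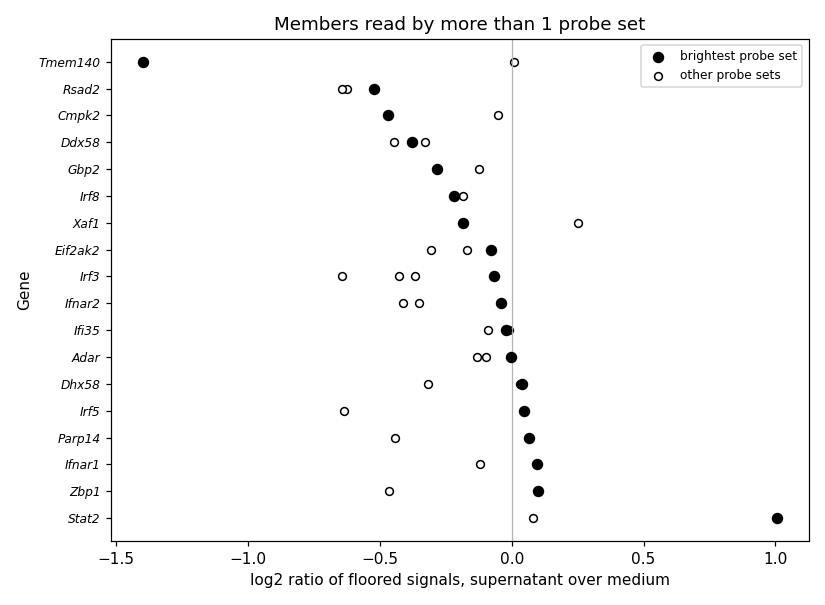
Supernatant over medium log2 ratio, after flooring, for every probe set of the 18 members read by more than 1, with the brightest filled and the others open, in order of the brightest. Rsad2 and Ddx58 lie left of 0 on all 3 probe sets, whereas the second probe sets of Tmem140 (0.01) and Stat2 (0.08) lie near 0.

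Genes of the same pathway outside the list were set beside it. Of 83 such genes 68 had a probe set of their own and 61 were measured, of which 2 (3.28%) were at least 1.5-fold lower and 1 higher. The share lower was below the 4.47% of all measured genes, and the median log2 ratio was -0.07. The ligands were dim. Ifnb1 (26.3 and 34.1), Ifna2, Ifna4, Ifna11 and Ifng were under the floor on both arrays. Ifna1 and Ifna5 passed it with medium only, at 43.2 and 40.6. The interferon zeta gene Ifnz read 121 and 84.1. Interferon alpha genes are near-identical, and their probe sets may not tell them apart.
The signalling genes had a median of 0.03 over 10 measured. Jak1 read 3138 with medium and 3191 with supernatant, Tyk2 583 and 544, and Jak2 642 and 687. The interferon gamma receptor chains Ifngr1 (1899 and 1966) and Ifngr2 (1941 and 2001) were also close. Socs3, an inhibitor of cytokine receptor signalling, read 999 and 1189, and Ptpn6, a phosphatase, 3800.2 and 4063. Genes that lead to interferon production had a median of 0.02 over 12 measured. The most different of these were higher, namely Trim25, a ubiquitin ligase that activates RIG-I (5223 and 7585, 1.45-fold), the DNA sensor Aim2 (165 and 231), the adaptor Mavs (1228 and 1597) and the adaptor Ticam1 (252 and 289). On its other probe set Mavs was lower (597 and 476).
The other interferon-induced genes had a median of -0.17 over 36 measured, and 26 of them (72.2%) were lower with the supernatant by any amount, beside 54.6% of all measured genes. At 1.5-fold 2 of the 36 (5.56%) were lower, near the 4.47% of all measured genes. Iigp1, an immunity-related GTPase, read 480.1 and 233, 2.06-fold lower, and 217 and 79.7 on its other probe set, 2.72-fold lower. Ddx60, a helicase, read 413 and 210.2, 1.96-fold lower. Gbp7 read 676 and 467, 1.45-fold lower, and was 1.54-fold lower on its other probe set. Sp110 was higher, at 41.5 and 72.9, but close to the floor, and its other probe sets were lower or under the floor.

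**Figure D3:**
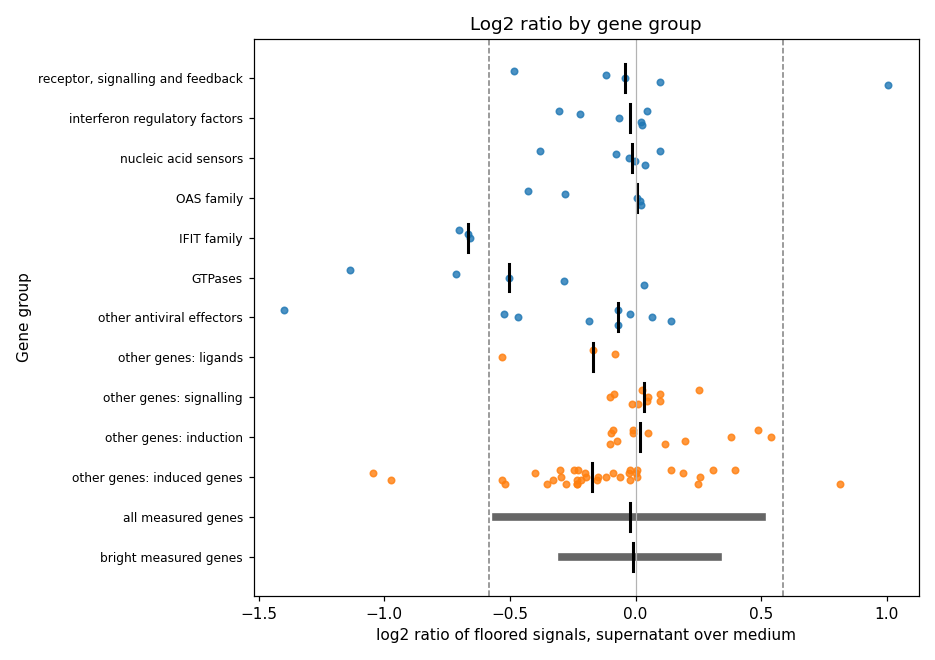
Supernatant over medium log2 ratio, after flooring, of each measured member by role (blue) and of other interferon pathway genes (orange), with medians as black bars and dashed lines at 1.5-fold. Grey bars span the 5th to 95th percentile of all measured genes (-0.55 to 0.50) and of bright genes (-0.29 to 0.33), and the IFIT genes lie left of both.

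Members with and without an ISRE match in the promoter overlapped in their log2 ratios. RefSeq promoters, 250 bases before to 50 after a start, were given for 32 of the 39 members, and 15 of these (46.9%) hold the ISRE core on either strand, compared with 3.99% of all 27025 genes in the table. Members with a match had a median log2 ratio of -0.08, from -1.40 (Tmem140) to 1.01 (Stat2), with 4 of 15 at least 1.5-fold lower. Those without one had a median of -0.07, with 1 of 17, Ifit2, at least 1.5-fold lower. Of all measured genes 4.47%, and of the bright ones 0.678%, were that much lower. The share among all genes with a match was not counted. Tmem140, 1 of the 4, was known to be lower when the list was drawn up. The shorter gamma-activated site core TTCNNNGAA, which reads the same on both strands, was in 13 of the 32 (40.6%), compared with 9.55% of all genes, and the median there was -0.04, beside -0.28 for the 19 members without it. In the windows printed above, the ISRE matches of Ifit1 begin at -104 and -85 from the start, those of Ifit3 at -156 and -122, and those of Bst2 at -130 and -124. A match of letters is a description and no measured binding site.

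**Figure D4:**
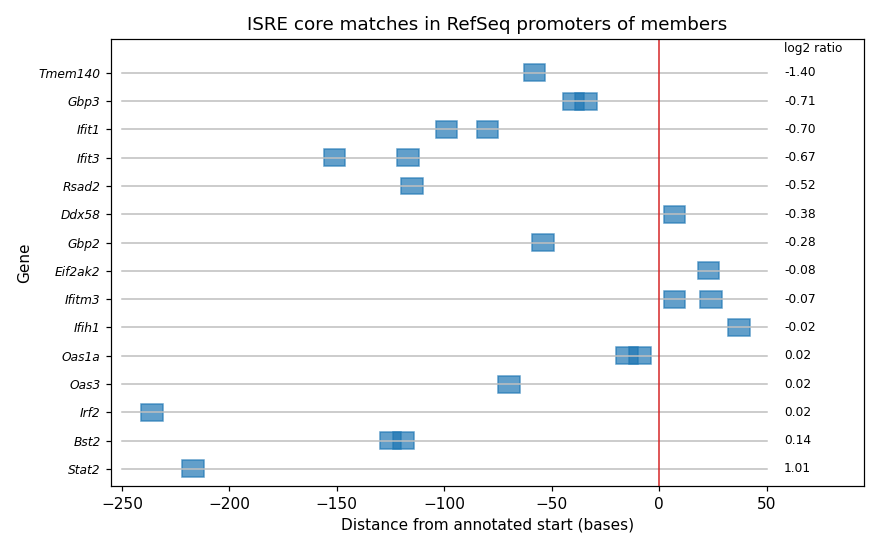
Position of each ISRE core match (blue boxes, 10 bases long) in the RefSeq promoters of the 15 members that hold one, as distance in bases from the annotated start (red line), in order of the log2 ratio printed at the right. Genes with matches on the same side of the start range from -1.40 (Tmem140) to 1.01 (Stat2).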

How the data were processed

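RNA of BMDMs with medium or apoptotic cell supernatant was hybridized to an Affymetrix mouse genome array, 1 array per condition. The authors deposited the linear signal intensity that MAS5 gave each probe set. The submitters' processing notes and the methods name this software. Over the 45101 probe sets the 2% trimmed mean equalled 500.0 on both arrays, so each carries 1 scaling factor. A genome build and further filters are not given in the sources used here. A single-color array has no read depth.

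Conditions came from the sample labels. The array's annotation table gave 34958 probe sets 1 gene and 932 several, and 9211 were not listed. Probe sets of several genes were not used. All 39 member symbols matched the Entrez identifiers of the RefSeq table (GRCm38.p6). Members and gene lists were chosen with earlier results of these data known. All members could be named, and of the other pathway lists the measured receptors and kinases and up to 4 genes per list with the largest difference. The ligands were instead named in full, outside this rule. Signals lower than the floor took its value, the log2 ratio followed, and no test was run. Alternatives were 3 scalings (median-centred, quantile, loess with a span of 30%), 5 treatments of dim signals and 2 choices of probe set. Leaving out Mx1 and Tmem140 was added after the data were seen. Promoter sequences are from RefSeq (GRCm38.p6), and both strands were searched. The log2 ratio per gene was tested on simulated data, while the scalings and the promoter search were not. Calculations used pandas 2.3.3 and numpy 2.4.6 under Python 3.11.15. Loess came from statsmodels 0.14.6, figures from matplotlib 3.10.9.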

Additional observations from a re-analysis of the deposited data

How the results depend on the processing

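No paired analysis was possible because the arrays, 1 per condition, carry no replicate numbers. The number of members at least 1.5-fold lower, 6 as reported, was 6 under each scaling and each treatment of dim signals, 7 when the log2 signals of a gene's probe sets were averaged (Rsad2 is added), 5 when probe sets with the _s, _x or _a suffix were left out, which leaves 29 members, without Mx1 and Gbp3 and with Irf3 at -0.64 on another probe set, and 4 without Mx1 and Tmem140. The share of all genes that were 1.5-fold lower, 4.47% as reported, was 17.3% without a floor and 13.8% with one lowered to the receptor median, where more dim genes count as measured, so that the 15.4% of members did not stand above it (no floor) or hardly did (receptor median). Under the other scalings, dim-signal treatments and probe set choices it ran from 2.37% to 6.08%, beside 15.4% to 17.9% of members. The median log2 ratio of members ran from -0.19 with the mean of all probe sets to -0.04 after median-centring. Counts at 2-fold rest on single genes. Members at least 2-fold lower, 2 as reported, were 1 with the mean of all probe sets, 1 without the suffixed probe sets, on which the Mx1 signal rests, and 0 without Mx1 and Tmem140. Members at least 2-fold higher, 1 as reported (Stat2), were 0 with the floor as a pseudocount and 0 with the mean of all probe sets, and at 1.5-fold the 1 member higher became 0 with that mean. Over all settings the log2 ratio of Ifit1 ran from -0.71 to -0.67, of Ifit2 from -0.67 to -0.63, of Ifit3 from -0.67 to -0.64, of Gbp3 from -0.71 to -0.67, of Mx1 from -1.14 to -1.03, of Tmem140 from -1.40 to -0.70 and of Stat2 from 0.54 to 1.09. Gbp3 and Mx1 are read only by a suffixed probe set and have no value without those. For single members, 369 of the values under the alternatives moved by less than the SD between probe sets and 9 by more, and none of the members past 1.5-fold changed direction. Apart from the pseudocount, the treatments of dim signals cannot alter any member but Mx2, since all other signals used exceed even the doubled floor of 76.8. A member with 1 probe set cannot move when probe sets are averaged. Many of the 369 values, and the 6 under those treatments, were therefore fixed in advance and show no robustness. Small ratios did change sign when probe sets were averaged, in Ifnar1 (from 0.10 to -0.01), Irf5 (0.05 to -0.30), Dhx58 (0.04 to -0.08), Zbp1 (0.10 to -0.18), Parp14 (0.06 to -0.19) and Xaf1 (-0.19 to 0.03). The error between cultures or arrays is not known, and signals near the floor, as for Mx2, can show no difference.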

Other observations

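The gene families below were gathered by symbol after their values had been seen, and each value comes from 1 array per condition. The Ifit genes lie close together on chromosome 19 of the RefSeq table, from Ifit2 through Ifit3, Ifit1bl1, Ifit3b and Ifit1bl2 to Ifit1. The entry Cnn2-ps lies between Ifit1bl2 and Ifit1. Beside 4.47% of all measured genes, all 5 measured there were at least 1.5-fold lower with the apoptotic cell supernatant. Besides the 3 members they were Ifit1bl1, a relative of Ifit1, with 526.5 and 270.2, 1.95-fold lower, and Ifit1bl2, with 59.6 and 36.8, the latter under the floor, at least 1.55-fold lower. Among 9 measured immunity-related and guanylate-binding GTPases, 8 were lower by any amount, beside 54.6% of all measured genes. At least 1.5-fold lower were 2 of the 9, Gbp3 and Iigp1, both given above, beside 4.47% of all measured genes. The median log2 ratio of the 9 was -0.50. Irgm2 read 967 and 675, Irgm1 1886 and 1500.3, and Igtp 1176 and 992, while Gbp6 read 92.5 and 92.9.

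All 7 measured Schlafen genes, which are induced by interferon in macrophages and lymphocytes, were lower by any amount, again beside 54.6% of all measured genes, from -0.71 for Slfn4 (398 and 243) to -0.19 for Slfn9 (734 and 645). Of these 1, Slfn4, was at least 1.5-fold lower, as were 4.47% of all measured genes. Of 11 measured Parp genes 6 were lower, near the share of all measured genes, and the median was -0.15. The 1 of 11 past 1.5-fold, beside 4.47% of all measured genes, was Parp16. It read 58.1 and 37.5, the latter under the floor, at least 1.51-fold lower. The p200 genes, which encode DNA-binding proteins of the pyrin and HIN type, did not move together. Of 7 measured, Ifi213 read 261 and 142 and Ifi203 188 and 119, while Ifi204 read 588 and 638 and Ifi207 2888 and 2991.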
